A study of Mus musculus with 2 samples.

Results

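The suppressors of cytokine signalling are a family of 8 genes, Cish and Socs1 to Socs7, whose proteins turn down cytokine receptors. They were taken here as the rows of the deposited gene tables that carry these 8 names, out of 34745 gene rows in all. The transcripts came from splenic regulatory T (Treg) cells, a suppressive CD4 lineage defined by the transcription factor Foxp3, of C57BL/6 mice aged 2 weeks. The poh1fl/fl Foxp3Cre+ mice, called KO here, carry floxed alleles of poh1 that are cut where the Foxp3 gene drives Cre. The poh1+/+ Foxp3Cre+ mice, called WT here, carry the same Cre allele with intact poh1, and in both genotypes the sorted cells were CD4+ and showed the YFP reporter of Foxp3. One library was sequenced per genotype, and no source used here says whether mice were pooled.

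POH1 is the protein of Psmd14, the enzyme that takes ubiquitin chains off proteins as the proteasome draws them in. Psmd14 had 463 counts (31.8 CPM, the count relative to the library total) in the KO library, against 1619 counts (89.4 CPM) in the WT library, which was 2.81-fold lower in KO (95% counting interval 2.53 to 3.12). This is the direction the label gives, though the count covers the whole gene and not the floxed part alone. The gene counts summed to 14544212 in KO and 18124611 in WT. With 1 library per genotype nothing here has a replicate check and no p-value is given. The ranges in parentheses cover counting error alone, not the spread between mice. In bulk RNA, more cells that express a gene and more RNA per cell cannot be told apart.

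Cytokines of this class bind receptors that carry Janus kinases (JAKs). The kinases phosphorylate STAT transcription factors, which enter the nucleus and switch on target genes. Some of the SOCS genes are among these, so that the inhibitor closes a feedback loop. Each SOCS protein holds an SH2 domain that docks on phosphotyrosine and a SOCS box that recruits elongins B and C, cullin 5 and the RING protein Rbx2, an E3 ubiquitin ligase whose substrates go to the proteasome. SOCS1 and SOCS3 also block the kinases directly. In Treg cells SOCS1 is known for restraining interferon-γ signalling, and CISH for being induced by interleukin-2 through STAT5.

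STATs bind DNA at GAS elements, written TTCNNNGAA, and the interferon regulatory factors bind repeats that hold GAAANNGAAA. Windows ran from 250 bases before to 50 bases after the RefSeq start (GRCm38.p6, the mm10 assembly). Those of 4 of the 8 members, Cish, Socs1, Socs3 and Socs4, were examined. The windows of Socs2, Socs5, Socs6 and Socs7 were not examined, so nothing is said here about their motifs. Both strands were searched. Of 32851 such windows, 8.30% held at least 1 TTCNNNGAA and 3.44% held at least 1 GAAANNGAAA. The stretches below are shown because they belong to the 3 members with the largest ratios between the libraries. Capitals mark the matches, and each sequence reads 5′ to 3′ on the gene's strand. The first is the RefSeq start of Cish (chr9:107296654-107296683, plus strand). The second holds the bases before the RefSeq start of Socs1 (chr16:10785537-10785786, minus strand). The third holds those before the RefSeq start of Socs3 (chr11:117969367-117969616, minus strand). The Cish and Socs3 stretches lie inside the gene spans given below, which come from GENCODE M21 and start further upstream.
Cish: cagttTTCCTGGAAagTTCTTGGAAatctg
Socs1: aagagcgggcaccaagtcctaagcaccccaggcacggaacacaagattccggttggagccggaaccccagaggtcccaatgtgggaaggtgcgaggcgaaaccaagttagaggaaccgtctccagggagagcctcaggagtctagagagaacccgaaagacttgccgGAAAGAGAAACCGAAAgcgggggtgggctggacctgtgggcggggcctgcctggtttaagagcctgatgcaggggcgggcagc
Socs3: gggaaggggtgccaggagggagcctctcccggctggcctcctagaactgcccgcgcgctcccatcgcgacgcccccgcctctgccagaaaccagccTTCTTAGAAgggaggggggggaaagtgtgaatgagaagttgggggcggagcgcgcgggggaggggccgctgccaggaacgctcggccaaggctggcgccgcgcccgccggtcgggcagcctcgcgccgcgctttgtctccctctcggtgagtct

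Cish held 2 GAS matches, TTCCTGGAA from the first base of the RefSeq transcript and TTCTTGGAA from base 12. Pairs were rare, since 0.457% of all windows held 2 or more. Socs3 held 1 GAS match, TTCTTAGAA, which began 154 bases before the start. Socs1 held no GAS match and 2 overlapping matches to GAAANNGAAA, which began 83 and 77 bases before the start, and 0.225% of windows held 2 or more. Socs4 held neither motif, and none of the 4 windows held TTCNNNNGAA, a wider spacing found in 6.95% of windows. A match describes letters in this window and is not evidence that a factor binds there.

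Of the 8 members, 4 were higher in the KO library and 0 were lower. With no test possible, a gene counts as higher or lower where its counting interval lies wholly beyond 1.5-fold. The higher ones were Socs1, Socs3, Cish and Socs2. Of the 13464 genes that reached 1 CPM in either library, the same criterion took 9.58% as higher and 12.3% as lower. Every member was above 1 CPM in both libraries, so none was lost to the filter. At a bound of 2-fold, 3 members were higher (Socs1, Socs3 and Cish) and 0 lower, against 4.34% of all measured genes higher and 6.63% lower. The median log2 ratio of the 8 members was 0.64, and 7 of them lay above 0, while the median over all measured genes was -0.005.

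Socs1, the interferon-induced inhibitor that binds the JAK kinase domain, had the largest ratio of the family. It had 1801 counts (123.8 CPM) in KO and 601 counts (33.2 CPM) in WT, 3.73-fold higher in KO (3.40 to 4.10). It lies on chromosome 16 from 10782240 to 10785536 on the minus strand (mm10) and shares no exon with another annotated gene. Among all measured genes, 361 had a larger log2 ratio.

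Socs3, which docks on the shared signal chain of the interleukin-6 receptor family and is known for damping STAT3, had the most counts in each library. It had 7193 counts (494 CPM) in KO and 2608 counts (143.9 CPM) in WT, 3.44-fold higher in KO (3.28 to 3.59). It lies on chromosome 11 from 117966079 to 117970047, minus strand, also free of overlap with other exons. The ratios of Socs1 and Socs3 did not separate, their quotient being 1.09 with an interval of 0.980 to 1.21.

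Cish, the STAT5 target that damps interleukin-2 receptor and T cell receptor signals, had the next ratio. It had 5059 counts (347.7 CPM) in KO and 2351 counts (129.8 CPM) in WT, 2.68-fold higher in KO (2.55 to 2.82). The ratio of Socs3 exceeded that of Cish by 1.28 times (1.20 to 1.37), and that of Cish exceeded that of Socs2 by 1.59 times (1.46 to 1.73), so Cish stood between them. Cish (chromosome 9, 107296026 to 107302784, plus strand) overlaps its neighbours. Exons of 2 opposite-strand genes cover 11.5% of its exon length, and the kit does not mark strand. Those genes, Gm17040 and Gm17041, had 2 counts each in KO and 4 and 1 counts in WT. These counts do not show how reads from the shared exons were assigned, so the effect of the overlap on the Cish counts is not known.

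Socs2, the inhibitor of growth hormone signalling through STAT5, was higher by a smaller step. It had 2005 counts (137.8 CPM) in KO and 1483 counts (81.9 CPM) in WT, 1.68-fold higher in KO (1.57 to 1.80). This passed the bound of 1.5-fold and not that of 2-fold. It lies on chromosome 10 from 95385362 to 95417180, minus strand.

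**Figure D1:**
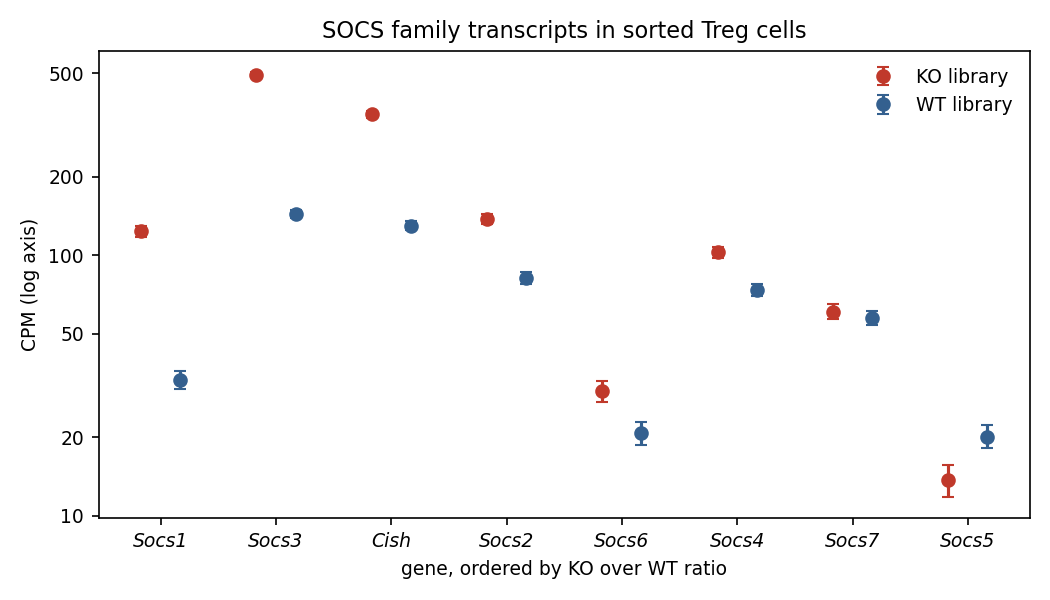
CPM (log axis) of each SOCS family member in the KO library (red, left of each pair) and the WT library (blue, right), with exact 95% Poisson intervals that cover counting error alone. Socs3 is at 494 CPM in KO and 143.9 CPM in WT, and Socs5 is the only member whose KO point lies below its WT point.

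The remaining 4 members were neither higher nor lower by this criterion. Socs4 and Socs5, which are best known for acting on the epidermal growth factor receptor, went opposite ways in value. Socs4 had 1494 counts (102.7 CPM) in KO and 1335 counts (73.7 CPM) in WT, a ratio of 1.39 (1.29 to 1.502). Socs5 had 199 counts (13.7 CPM) in KO and 365 counts (20.1 CPM) in WT, a ratio of 0.679 (0.568 to 0.809). It was the sole member with a ratio under 1, and its interval lay below 1 but crossed the bound of 1.5-fold.

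Socs6, which acts on the receptor kinase KIT and on the T cell kinase LCK, had 437 counts (30.04 CPM) in KO and 376 counts (20.8 CPM) in WT, a ratio of 1.45 (1.26 to 1.67). Socs7, which acts on insulin signalling, had 885 counts (60.8 CPM) in KO and 1044 counts (57.6 CPM) in WT. Its ratio was 1.06, with an interval of 0.964 to 1.16 that held 1. In the order of ratios the neighbours Socs2 and Socs6 did not separate (quotient 1.16, 0.995 to 1.36), and neither did Socs6 and Socs4 (1.04, 0.886 to 1.22). Socs4 stood above Socs7 (1.32, 1.17 to 1.49), and Socs7 above Socs5 (1.555, 1.275 to 1.90). These quotients compare counts within each library and do not depend on scaling.

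**Figure D2:**
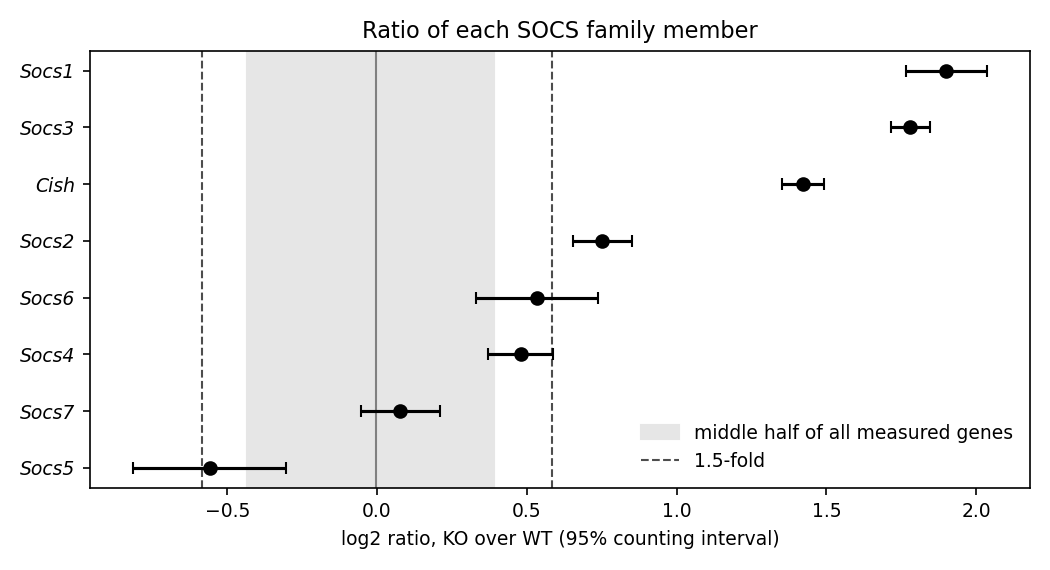
Log2 ratio of KO over WT for each member with its 95% counting interval, dashed lines at 1.5-fold in either direction, and a grey band for the middle 50% of all measured genes (-0.435 to 0.391). Socs1, Socs3 and Cish lie between 1.42 and 1.90, Socs2 at 0.75, and the interval of Socs5 spans -0.82 to -0.30.

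The family as a whole took more of the KO library. The 8 members summed to 19073 counts (1311 CPM) in KO and 10163 counts (561 CPM) in WT, 2.34-fold higher in KO (2.28 to 2.40). Without Socs3, the 7 others were 1.96-fold higher (1.90 to 2.02). Cish, Socs1 and Socs3 together were 3.15-fold higher (3.05 to 3.25), and the other 5 members together had a ratio of 1.36 (1.31 to 1.41).

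The make-up of the family shifted with it. Socs3 took 37.7% of the family's counts in KO (Clopper-Pearson interval 37.02% to 38.4%) and 25.7% in WT (24.8% to 26.5%). Socs7 took 4.64% in KO (4.35% to 4.95%) and 10.3% in WT (9.69% to 10.9%), although its own CPM hardly differed. Socs5 held 1.04% in KO (0.904% to 1.20%) and 3.59% in WT (3.24% to 3.97%).

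Counts rise with transcript length, so levels of different genes compare only per length. By the authors' FPKM (reads scaled by gene length and library total), Socs3 was at 150.4 in KO and 43.8 in WT, Socs1 at 101.5 in KO and 27.2 in WT, and Cish at 32.1 in KO and 11.96 in WT. These 3 genes together made up 88.1% of the family's summed FPKM in KO and 73.1% in WT. Socs4 followed at 14.95 FPKM in KO and 10.7 FPKM in WT. Socs2 and Socs7 came next, at 10.1 and 8.23 FPKM in KO and at 5.98 and 7.79 FPKM in WT, so that they changed places. Per kilobase of merged exons they did not, Socs2 being at 14.5 in KO and 8.59 in WT and Socs7 at 8.37 in KO and 7.93 in WT. Per kilobase of the longest transcript Socs2 was again above Socs7 in both libraries. Per kilobase of all transcripts summed it was below in both, at 6.94 against 8.09 in KO and 4.12 against 7.66 in WT. The order of Socs2 and Socs7 thus depended on the length.

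The bottom of the order was Socs5, at 3.12 FPKM in KO and 4.59 FPKM in WT, and Socs6, at 2.01 FPKM in KO and 1.39 FPKM in WT. Socs3 was first and Socs5 and Socs6 were the last pair in all 8 orders made from 4 lengths and 2 libraries (FPKM, merged exons, longest transcript and all transcripts summed, the last 3 from the annotation).

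The order of Cish and Socs1 depended on the length. The length behind the FPKM was 10.85 kb for Cish, whose merged exons span 6.42 kb, and 1.22 kb for Socs1, whose merged exons span 2.91 kb. Per kilobase of merged exons, Cish was at 54.2 in KO and 20.2 in WT, and Socs1 at 42.6 in KO and 11.4 in WT, which puts Cish above. Cish stood above Socs1 in 6 of the 8 orders, the exceptions being those by FPKM.

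**Figure D3:**
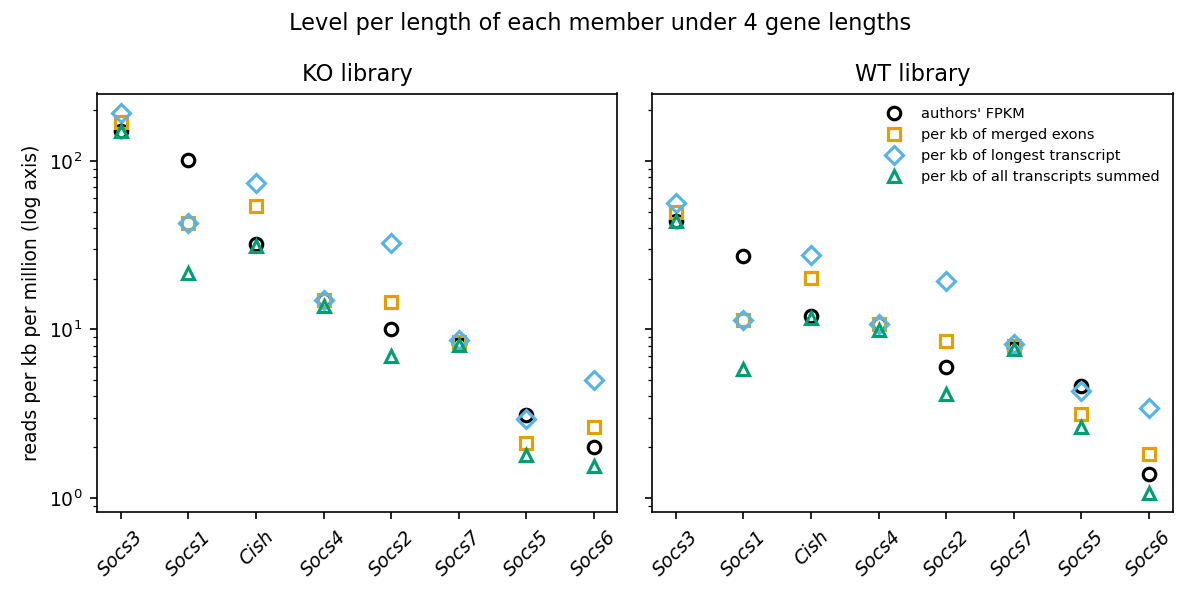
Level of each member per kilobase, scaled to the library total (log axis), in the KO library (left) and the WT library (right) under 4 gene lengths, the symbols giving the length used. Socs3 tops each panel, while Socs1, Cish and Socs2 shift with the length, Socs1 in KO from 101.5 by FPKM to 42.6 per kb of merged exons.

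Set against molecules they act with, each of the 8 pairs of an inhibitor and a partner described here gave more inhibitor counts per partner count in KO, with an interval above 1. The inhibitors in these pairs were Socs1, Socs3, Cish and Socs2, the 4 members already called higher. A quotient above 1 was thus largely set by that choice, and the shared direction is no separate result. Against Ifngr1, the ligand-binding chain of the interferon-γ receptor, Socs1 stood at 45.4 per 100 in KO and 17.04 in WT, a quotient of 2.66 (2.40 to 2.96).

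Socs3 gained on both of its partners. Per 100 counts of Stat3 there were 89.2 of Socs3 in KO and 49.98 in WT (1.79, 1.69 to 1.89). Per 100 counts of Il6st, the shared signal chain that SOCS3 binds, there were 198 in KO and 60.5 in WT (3.27, 3.07 to 3.49). Cish stood at 17.3 per 100 counts of Il2rb, the interleukin-2 receptor beta chain, in KO and 12.5 in WT (1.38, 1.31 to 1.46). Against Stat5a the Cish quotient was 1.497 (1.40 to 1.605) and against Stat5b it was 1.76 (1.66 to 1.87). Socs2 beside Stat5b gave a quotient of 1.11 (1.025 to 1.19), the smallest of the 8, and Socs1 beside the interferon-induced factor gene Irf1 gave 1.43 (1.29 to 1.59).

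Over all measured genes the criterion took 9.58% as higher and 12.3% as lower, the shares to set beside each list count below. Among the ligands, 3 of 8 measured cytokine genes were higher in KO, 2 were lower and 3 neither, with a median log2 ratio of 0.48. Lif and Osm, both of the interleukin-6 family whose receptors share Il6st, were among the higher. Lif had 1339 counts in KO and 433 in WT, 3.85-fold higher (3.45 to 4.30), and Osm had 684 counts in KO and 308 in WT, 2.77-fold higher (2.41 to 3.17). The other was Il13, with 22 counts in KO and 6 in WT. Il10, the suppressive cytokine gene, had 59 counts in KO and 1362 in WT, 18.5-fold lower (14.3 to 24.5). Ebi3, a subunit of interleukin-27 and interleukin-35, was 2.58-fold lower (2.22 to 3.002). Il2 itself had 3 counts in KO and 0 in WT, at the floor of 3 counts (0.206 CPM in KO and 0.166 CPM in WT).

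Of 8 receptor genes that use or join the common gamma chain, 3 were higher in KO and 1 lower (median 0.51). Il4ra was 2.08-fold higher (2.01 to 2.16), Il2rb 1.94-fold higher (1.90 to 1.98) and Il2ra, which encodes CD25, 1.55-fold higher (1.52 to 1.58). Il9r, at 3.64 CPM in KO and 81.7 CPM in WT, was 22.4-fold lower (17.1 to 30.1). Of 17 other measured immune receptor chains, 3 were higher and 0 lower (median 0.36). They were Il12rb2, at 28.7 CPM in KO and 1.38 CPM in WT, Ifngr2 at 2.12-fold higher (1.95 to 2.31) and Il12rb1 at 1.65-fold higher (1.53 to 1.78). The shared chain Il6st had a ratio of 1.05 (1.004 to 1.097). Il27ra, the highest of these other chains by FPKM, had a ratio of 0.9965 (0.954 to 1.041).

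Receptors of hormones and growth factors, the textbook partners of SOCS2, SOCS5, SOCS6 and SOCS7, varied in level. Of 8 measured, 1 was higher and 2 were lower (median -0.02). Insr, the insulin receptor gene, had 1104 counts in KO and 848 in WT, a ratio of 1.62 (1.48 to 1.775). Kit had 78 counts in KO and 166 in WT, a ratio of 0.585 (0.441 to 0.770). Neither was called. Prlr, the prolactin receptor gene, had 44 counts in KO and 10 in WT, and Ghr, the growth hormone receptor gene, 0 in KO and 2 in WT. Epor had 10 counts in KO and 56 in WT, and Flt3 had 26 in KO and 107 in WT. Epor is also an erythroid marker and Flt3 a dendritic cell marker, and 9 of 9 measured erythroid and 4 of 8 measured dendritic cell markers were lower in KO. The part of those cells in these calls was not tested. Irs2, the insulin receptor substrate gene and the highest of the list by FPKM, at 12.8 in KO and 15.6 in WT, had a ratio of 0.820 (0.747 to 0.9001).

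Of the 4 JAK genes, 1 was higher and 0 lower (median 0.03). This was Jak2, at 461 CPM in KO and 283 CPM in WT, 1.63-fold higher (1.57 to 1.69), while Jak1 had a ratio of 0.896 (0.873 to 0.919). Of 6 STAT genes described here, 3 were higher and 0 lower (median 0.72). Stat2, which acts in type I interferon signalling, was at 316 CPM in KO and 110.7 CPM in WT, 2.85-fold higher (2.71 to 3.01). Stat3 was 1.92-fold (1.86 to 1.99) and Stat5a 1.79-fold higher (1.705 to 1.88). Stat5b had a ratio of 1.52 (1.47 to 1.58).

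A list of 12 genes, among them cullins, elongins and neddylation enzymes, covered the ubiquitin ligase that the SOCS box recruits and related ligases. None was called in either direction (0 of 12), and the median was -0.03. Uncalled genes still differed in value. Rnf7, which encodes Rbx2, had a ratio of 0.817 (0.730 to 0.914) and Ube2f one of 0.715 (0.623 to 0.819). Rbx1 was at 1.31 (1.175 to 1.47) and Uba3 at 1.36 (1.24 to 1.495). Cul5 had 930 counts in KO and 1166 in WT, a ratio of 0.993 (0.910 to 1.08), and Tceb2, which encodes elongin B, had a ratio of 0.830 (0.747 to 0.921). Of 14 measured genes of other SOCS box proteins, 2 were higher and 1 lower (median 0.32), counts close to the shares over all measured genes. Spsb1 was 2.57-fold higher (2.14 to 3.10), Asb13 was 2.05-fold higher (1.84 to 2.29), and Asb2 was 1.95-fold lower (1.60 to 2.40).

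Of 13 inhibitors of the pathway outside the family, 2 were higher and 0 lower (median -0.12). Over all measured genes, 9.58% were higher and 12.3% lower. Some uncalled ones differed in value, Pias3 with a ratio of 0.634 (0.554 to 0.725), Sh2b3 of 0.661 (0.602 to 0.726) and Cblb of 1.504 (1.43 to 1.58). Usp18, an interferon-induced brake on the type I interferon receptor, had 565 counts in KO and 186 in WT, 3.78-fold higher (3.20 to 4.49). Ptpn1, a phosphatase of JAK2 and TYK2, was 2.04-fold higher (1.98 to 2.12). Ptprc, which encodes CD45 and had the most counts of the list in both libraries (but not the highest FPKM in KO), had a ratio of 0.922 (0.908 to 0.937).

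Target genes of STAT5 and STAT3 did not share one direction. Of 14 STAT5 target genes, 8 were higher and 2 lower (median 0.68). Lta was 2.45-fold higher (2.25 to 2.68) and Bcl2 2.16-fold higher (2.08 to 2.24), while Gzmb was 2.87-fold lower (2.65 to 3.11) and Bcl2l1 1.94-fold lower (1.68 to 2.25). Pim1, the highest of the list by FPKM, at 470.5 in KO and 453 in WT, had a ratio of 1.04 (1.02 to 1.06).

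Of 15 STAT3 target genes, 1 was higher and 11 were lower (median -1.57). Bcl3 was the higher one, at 203 CPM in KO and 56.1 CPM in WT, 3.63-fold higher (3.38 to 3.90). The lower ones included Il10 and the transcription factor genes Maf, 9.31-fold lower (8.58 to 10.1), and Ahr, 10.4-fold lower (8.89 to 12.2), which also serve effector and tissue Treg cells. Junb, the highest of the list by FPKM, was 1.58-fold lower (1.55 to 1.61). Socs3 is itself a textbook STAT3 target, and was left out of that list as a member of the family. Of all these genes, 6 stand in more than 1 of the 11 lists, Il10 and Osm among them.

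**Figure D4:**
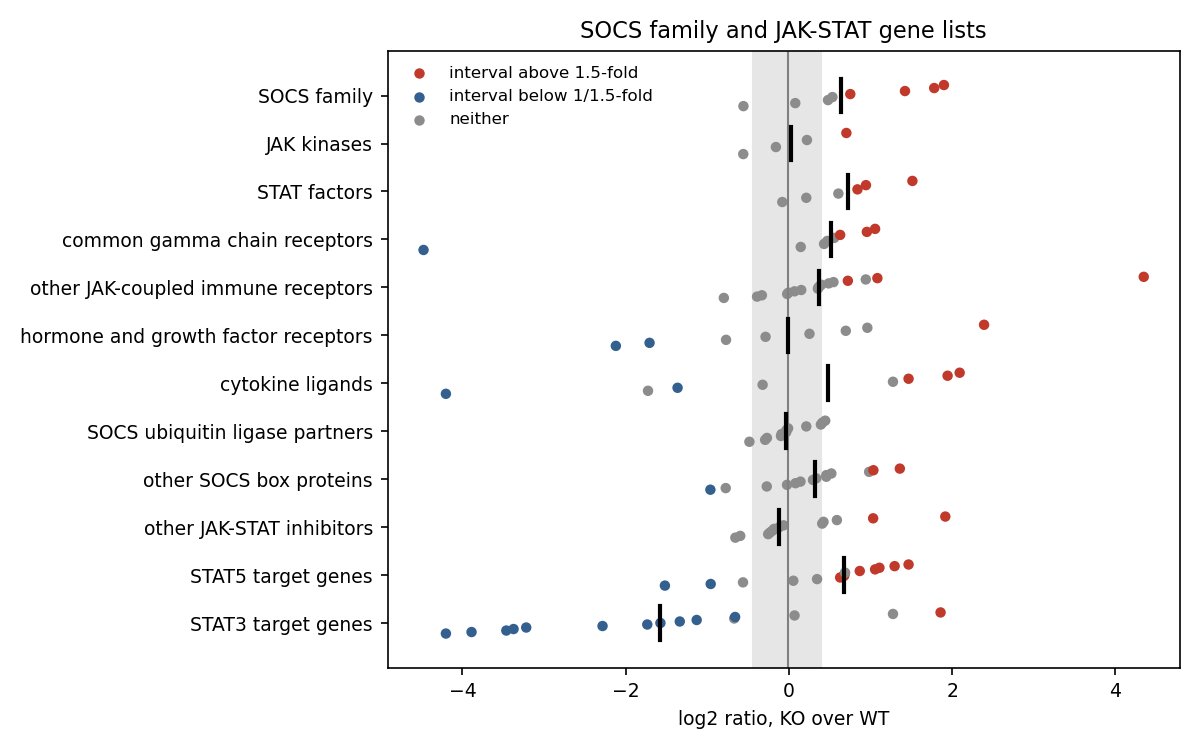
Log2 ratio of KO over WT for each measured gene of the SOCS family and 11 JAK-STAT lists, 1 point a gene, with red for an interval wholly above 1.5-fold, blue for wholly below and grey for neither. Black bars are list medians, from 0.72 for STAT factors and 0.64 for the SOCS family to -1.57 for STAT3 targets, and the grey band is the middle 50% of all measured genes.

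Foxp3, which defines the sorted cells, was at 1073 CPM in KO and 671 CPM in WT, and 10 T cell and Treg markers summed to 6301 CPM in KO and 6372 CPM in WT. Of these 10, 2 were higher (Foxp3 and Il2ra) and 2 lower, with a median log2 ratio of -0.13. The lower ones were the Treg genes Ctla4, with a ratio of 0.628 (0.613 to 0.643), and Ikzf2, which encodes Helios, with a ratio of 0.637 (0.620 to 0.655). Markers of other spleen cells were present at lower levels, and those of several types differed between the genotypes. B cell markers were lower in 9 of 10 and summed to 34.4 CPM in KO and 132.8 CPM in WT, and 9 of 9 erythroid markers were lower, by 2.41 to 6.65 times, with sums of 24.1 CPM in KO and 97.4 CPM in WT. Monocyte and macrophage markers, of cells in which SOCS3 is also induced, summed to 337.7 CPM in KO and 393 CPM in WT, with 1 of 11 higher, 2 lower and 8 neither (median 0.06). The direction of that sum rested on Ccr2, at 9.69 CPM in KO and 108.1 CPM in WT. Without it the other 10 summed to 328 CPM in KO and 285 CPM in WT, Csf1r, the macrophage growth factor receptor gene, being 1.74-fold higher (1.60 to 1.89). Neutrophil markers, lower in 4 of 5 measured, summed to 6.19 CPM in KO and 17.1 CPM in WT, and dendritic cell markers, lower in 4 of 8, to 66.5 CPM in KO and 77.2 CPM in WT. The neutrophil marker S100a8 had 0 counts in KO and 12 in WT, Camp 0 in KO and 26 in WT, and Elane 0 in both, whereas Retnlg had 10 in KO and 0 in WT. The dendritic cell marker Xcr1 had 0 counts in KO and 48 in WT, and Clec9a 0 in KO and 23 in WT. Stromal and endothelial markers, lower in 3 of 4 measured, summed to 190.5 CPM in KO and 175.5 CPM in WT, of which Pecam1, also expressed by T cells, gave 2750 counts in KO and 3076 in WT. Without Pecam1 the other 7 summed to 1.44 CPM in KO and 5.74 CPM in WT.

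The CD8 T cell genes Cd8a and Cd8b1 were both higher and summed to 47.4 CPM in KO and 18.8 CPM in WT. NK cell markers, higher in 1 of 3 measured, summed to 10.04 CPM in KO and 4.08 CPM in WT, and of them Ncr1 had 0 counts in KO and 2 in WT. The higher one was Eomes, and the other 6 summed to 1.65 CPM in KO and 2.54 CPM in WT. The part of these other cells in the ratios of the SOCS genes was not tested.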

How the data were processed

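Total RNA of sorted cells was made into libraries with the TruSeq RNA v2 kit, per the labels' protocols, and TopHat, HTSeq and mm10 are named in the submitters' processing notes. No source used here gives their versions, the annotation or how multiply matching reads were treated. Per the file headers, the deposited tables hold a read count and an FPKM value per gene name. The length behind the authors' FPKM was recovered from the ratio of count to FPKM.

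Counts were scaled by TMM (edgeR 4.0.16, R 4.3.3), and CPM and ratios use these totals. log2 ratios had 0.5 counts added. Ratios have exact 95% conditional-binomial (Clopper-Pearson) intervals, calls need an interval wholly beyond 1.5-fold, and quotients of ratios have exact conditional odds-ratio intervals. PCR copies were not told apart by molecular identifiers, so intervals and the floor of 3 counts cover counting error only. Positions, lengths and exon overlaps come from GENCODE M21 (mm10), promoters from RefSeq GRCm38.p6. Intervals were computed with scipy 1.17.1 in Python 3.11.15 and figures drawn with matplotlib 3.10.9, and the calculations were tested on simulated data. Other scalings (DESeq2 1.42.0 size factors among them), filters, bounds and gene lengths were tried.

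The members, the lists and the 8 pairs were chosen with earlier results of these data known. One pathway gene, with its pair and a list of target genes, is not reported here. The text names the 8 members and Psmd14, and up to 3 called genes at each end of a JAK-STAT list. It also names the gene of each such list with the highest FPKM summed over both libraries. Other genes, such as Foxp3, Ptprc, Il2, Ghr, Insr, Kit, Cul5, Il6st and Irf1, were named for their role. Uncalled genes such as Cblb, Pias3, Sh2b3, Rbx1 and Uba3 were named to show the spread within a list. With 2 libraries a pattern is a single ratio, so no gene was sought for likeness to a member.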

Additional observations from a re-analysis of the deposited data

How the results depend on the processing

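Scaling by totals, upper quartile or median of ratios moved all log2 ratios by 0.0008, 0.0400 and -0.0065 against TMM, and under these, with 2 counts added and with no minimum or one of 5 CPM, every member kept its direction and its call. The count of members higher was 4 at 1.5-fold and 3 at 2-fold, since Socs2, at a log2 ratio of 0.75, was not beyond 2-fold. The count of members lower was 0 under each. The summed counts of the 8 members kept their log2 ratio of 1.23 within 1.22 and 1.27. The share of Socs3 in the family's summed level depended on the gene length. By FPKM it was 46.7% in KO and 38.6% in WT, per kb of merged exons 55.1% in KO and 43.8% in WT, per kb of the longest transcript 51.8% in KO and 39.9% in WT, and per kb of all transcripts summed 63.8% in KO and 50.5% in WT. The last 2 lengths were chosen after seeing the data. Of the list medians, that of the cytokine ligands turned to -0.32 with a minimum of 5 CPM, which leaves fewer genes, that of the other SOCS box proteins was 0.11 with no minimum, and that of the hormone and growth factor receptors was -0.29 with a minimum of 5 CPM and -0.53 with none. Of 154 recounts of the lists' calls, 13 moved by over 1.5 times. At 2-fold, 1 STAT gene was higher, 1 common gamma chain receptor, 1 other immune receptor, 0 JAK genes, 1 other inhibitor, 1 other SOCS box gene (0 lower) and 4 STAT5 targets (1 lower). Of the hormone and growth factor receptors, 2 were higher under upper quartile scaling or no minimum, and 0 higher and 1 lower at 5 CPM. Leaving out 1 gene, a choice made after seeing the data, turned the log2 ratio of summed markers to 0.20 without Ccr2 for monocytes and macrophages, -0.62 without Eomes for NK cells and -1.99 without Pecam1 for stromal and endothelial cells. No paired analysis was possible because there is 1 library per genotype, and for the same reason no library could be left out. Depth limits Prlr, Ghr, Epor, Il13 and Il2, which rest on few counts.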

Other observations

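The length behind the authors' FPKM was compared with GENCODE M21 for 9801 genes with at least 100 counts in WT. It exceeded the merged exon length by over 10% in 64.1% of them, and in 75.6% of the 6934 genes with 4 or more annotated transcripts. It exceeded the summed length of all annotated transcripts by over 10% in 0.735%. It was within 10% of the merged exons in 18.65% of these genes, of the longest transcript in 20.5% and of the summed transcripts in 22.8%, and its median was 0.705 of the summed transcripts. For Socs3 it was 3288 bases, the same as the 3 annotated transcripts summed, and for Cish 10850 bases beside 11071 summed. For Socs1 it was 1220 bases beside 5693 summed, for Socs2 13691 beside 19870 and for Socs5 4392 beside 7645. FPKM values of Cish, Socs2, Socs3 and Socs6 are thus lower, and those of Socs1 and Socs5 higher, than per kilobase of merged exons. For Socs3 in KO the values were 150.4 and 171. Those of Socs4 and Socs7 were close by both lengths. Comparisons of one gene between the 2 libraries are not touched by this, since the length cancels.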
